A study of Mus musculus with 15 samples.

Results

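Described here are stretches of the genome under set limits of H3K4Me1 and H3K27Ac in pre-B cells. They became rich in H3K27Ac by 12 h after C/EBPα was switched on. The mouse genome (build mm9, chromosomes 1 to 19 and X) was tiled into 879674 windows of 3 kb, of which 832530 held a tag in at least 1 library and were called mappable. The level of a mark in a window is its number of distinct tag positions divided by the mean over the mappable windows of that library. A level of 1 is thus the mean over windows, and the median window lay below it in every library. A window was taken when H3K4Me1 at 0 h was under 2, H3K27Ac at 0 h and at 3 h was under 1.5, and H3K27Ac at 12 h and at 48 h was at least 3. By this rule 1434 windows, 0.172% of the mappable ones, were gained by 12 h, and they formed 1242 runs of touching windows. Because the windows were chosen by H3K4Me1 at 0 h and H3K27Ac at 0, 3, 12 and 48 h, these values are given below as a description and support nothing.

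The libraries came from C10 cells, a HAFTL-derived line of mouse pre-B cells that expresses a C/EBPαER fusion protein together with GFP. Every group of the series carries this transgene. β-estradiol activates the fusion protein, and the cells were grown with IL-3 and CSF-1 during induction, while control cells received the solvent ethanol. Chromatin immunoprecipitation with sequencing (ChIP-seq) was done for H3K4Me1, H3K27Ac and H3K27Me3 at 0, 3, 12, 24 and 48 h, with 1 library for each mark and time, 15 in all. With 1 library per group no difference between times has a replicate check, so no test was made. Intervals below are exact 95% Poisson or binomial intervals that cover counting error only, and touching windows are not independent of each other.

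Enhancers are stretches of DNA that raise the transcription of genes which may lie far away. Their flanking nucleosomes carry H3K4Me1 when transcription factors have bound them, whether or not they are in use, and H3K27Ac when they are in use. H3K27Me3 is laid down by Polycomb repressive complex 2 on silent genes and excludes H3K27Ac on the same residue. C/EBPα is a leucine zipper transcription factor of granulocytes and macrophages, and when forced into B cell precursors it turns them into macrophage-like cells. PU.1, an Ets factor, and AP-1, the Fos and Jun dimers, bind many macrophage enhancers too.

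Depth and cell identity were as follows. The libraries held 10913733 to 17508384 distinct positions for H3K4Me1, 15216488 to 17528865 for H3K27Ac and 15338280 to 31541879 for H3K27Me3. A mappable window held 18.3 to 21.1 tags of H3K27Ac on average, so that a level of 3 rests on 55 to 64 tags. At the starts of 8 pre-B cell marker genes H3K27Ac stood at levels of 47.0 to 93.6 at 0 h and at 15 to 32.7 at 48 h, and 0 of the 8 were higher at 48 h. Of 8 macrophage marker genes, 2 had a start level of at least 3 at 0 h and 7 at 48 h, and of 4 T cell genes 0 did at either time. Of 4 neutrophil granule genes, Elane stood at 0.875 at 0 h, 10.8 at 12 h and 3.5 at 48 h and Prtn3 at 5.25, 17.2 and 5.28, while Mpo and Ltf were under 1 at all 5 times. Of 3 erythroid genes, Klf1 stood at 5.64 at 0 h and 4.92 at 48 h, and Gata1 and Hbb-b1 were under 1. The part of these genes' cell types in the results was not tested. The H3K27Ac libraries of 0 h and 3 h stood apart in a 90 kb segment of chromosome 12 within the immunoglobulin heavy chain locus. They held 523 and 438 tags there, whereas the other 13 libraries together held 23. Whether they also stood apart at other places is not shown here. The segment held 0 of the windows gained by 12 h. Both libraries enter the rule, and without them 5057 windows met its remaining conditions, of which the 1434 made up 28.4%. The part of the heavy chain difference in the results was not tested. If those 2 libraries came from other cells of the line than the rest, that and the H3K27Ac change from 3 h to 12 h cannot be told apart. The number of windows, the medians of H3K4Me1 after 0 h, of H3K27Ac at 24 h and of H3K27Me3 at 0 and 48 h, the shares with H3K4Me1 at 12 h and near a start, and the share that kept H3K27Me3 were recomputed without those libraries in the choice, and the other results were not.

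As examples of C/EBP matches, 150 bases are printed for 6 of the windows highest in H3K27Ac at 12 h. Each is on the + strand of NCBIM37, which is mm9. Each stretch is centred on the match to the C/EBP core TTGCNNAA (either strand) that lay nearest to the centre of the H3K27Ac tags of 48 h. Capitals mark the C/EBP match and, in the first sequence, a match to the AP-1 site TGACTCA on the other strand. The first window is shown because it was the highest of all, and its match lay 878 bp from the tag centre. The other 5 are shown because their match lay within 200 bp of it, at 43, 51, 174, 11 and 63 bp in the order printed.
B230120H23Rik intron, chr2:72189507-72189656: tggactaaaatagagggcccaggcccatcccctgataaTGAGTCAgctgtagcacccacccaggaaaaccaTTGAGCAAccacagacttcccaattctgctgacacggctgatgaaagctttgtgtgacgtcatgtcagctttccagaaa
Tom1 intron, chr8:77587114-77587263: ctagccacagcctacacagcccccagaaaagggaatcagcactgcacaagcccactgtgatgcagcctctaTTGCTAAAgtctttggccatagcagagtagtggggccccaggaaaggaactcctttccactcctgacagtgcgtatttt
upstream of Ikbke, chr1:133183754-133183903: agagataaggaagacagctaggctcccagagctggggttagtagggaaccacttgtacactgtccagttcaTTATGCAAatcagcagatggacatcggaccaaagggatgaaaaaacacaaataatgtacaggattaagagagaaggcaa
Ptpre intron, chr7:142858159-142858308: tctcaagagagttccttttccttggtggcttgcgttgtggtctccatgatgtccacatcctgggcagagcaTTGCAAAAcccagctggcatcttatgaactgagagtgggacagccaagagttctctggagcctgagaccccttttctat
Metap1d intron, chr2:71337833-71337982: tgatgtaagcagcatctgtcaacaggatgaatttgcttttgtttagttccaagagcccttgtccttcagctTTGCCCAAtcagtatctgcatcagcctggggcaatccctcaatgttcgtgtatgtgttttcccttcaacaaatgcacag
upstream of Rbpj, chr5:53938361-53938510: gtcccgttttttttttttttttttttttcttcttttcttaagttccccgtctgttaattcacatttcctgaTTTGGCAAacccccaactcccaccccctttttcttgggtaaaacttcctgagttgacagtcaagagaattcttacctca
The matches differ in the free letters of the core and in strand, and none of the 6 is the palindrome TTGCGCAA. The window 2.41 kb inside Heatr7a, also among the 10 highest, held no match to TTGCNNAA at all. The core was present in 74.5% of the 1434 windows and in 76.2% of all mappable windows. In the central 400 bp the shares were 19.6% and 18.1%. A match to it therefore did not set these windows apart, and the stretches were picked for having one.

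The marks moved in the following order at the 1434 windows. The median level of H3K27Ac was 0.602 at 0 h, 0.95 at 3 h, 4.28 at 12 h, 8.5 at 24 h and 7.97 at 48 h. Of these only the 24 h value did not enter the rule. For H3K4Me1 the medians were 1.06, 1.24, 5.53, 8.47 and 9.0 at the same times, and only the first was capped by the rule. With levels taken over background windows, for the choice as well, the H3K4Me1 medians were 9.54 at 12 h, 15.2 at 24 h and 15.5 at 48 h and the H3K27Ac median at 24 h was 15.3. Scaled so that windows at 3 or more in the mark at all 5 times had an equal total, H3K4Me1 at 12 h was 4.1 and H3K27Ac at 24 h 7.29. Under all 3 scalings the H3K4Me1 median was higher at 12 h than at 3 h. With the H3K27Ac libraries of 0 h and 3 h left out of the choice, the H3K4Me1 medians were 1.85 at 3 h, 4.31 at 12 h, 6.0 at 24 h and 6.18 at 48 h. The median H3K27Me3 level was 0.633, 0.689, 0.617, 0.595 and 0.597, and over all mappable windows it was 0.792, 0.78, 0.705, 0.715 and 0.706. With levels taken over background windows the H3K27Me3 medians of the same 1434 windows were 0.633, 0.694, 0.683, 0.678 and 0.687. The direction of this median from 0 h to 48 h thus moved with the scaling. Over all mappable windows the H3K4Me1 median was 0.352 at 0 h, 0.203 at 12 h and 0.229 at 48 h. That of H3K27Ac was 0.219 at 0 h and 0.142 at 24 h. The upper quartiles of all mappable windows at 0 h were 0.763 for H3K4Me1 and 0.438 for H3K27Ac. The medians of the 1434 windows at 0 h, 1.06 and 0.602, lay above these quartiles, so they were low only against the limits of the rule. A single window at the median had 179 tags of H3K27Ac at 24 h, which gives an interval of 7.3 to 9.84 for its level. For H3K4Me1 at 12 h the median window had 109 tags and an interval of 4.54 to 6.67.

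**Figure D1:**
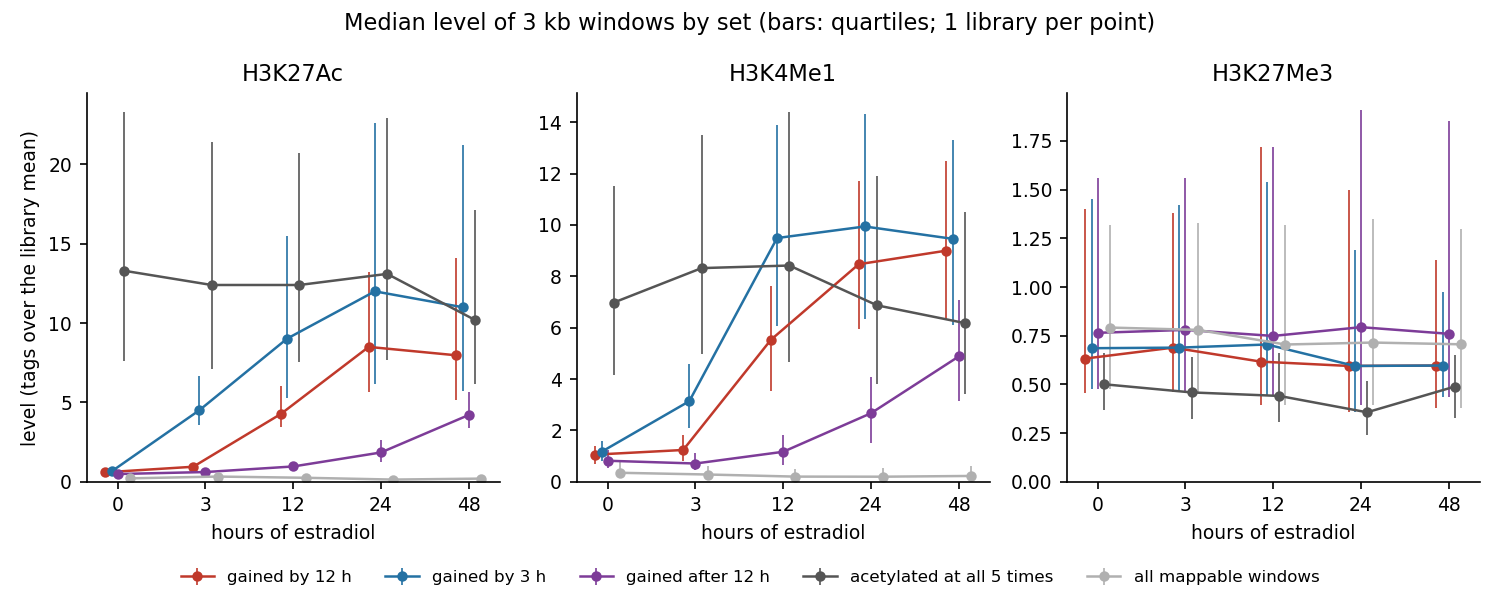
Median level (tags over the library mean, vertical axis) of H3K27Ac, H3K4Me1 and H3K27Me3 against hours of estradiol for 5 sets of 3 kb windows; points are medians over windows from 1 library each and bars are quartiles over windows. The windows gained by 12 h (red) went from 1.24 in H3K4Me1 at 3 h to 5.53 at 12 h, between the windows gained by 3 h and those gained after 12 h, and their H3K27Me3 medians stayed between 0.595 and 0.689.

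Windows close to a threshold differed from those outside by 1 tag. The highest H3K4Me1 level at 0 h inside the rule was 1.99, and the nearest window that failed by this condition alone stood at 2.05. For H3K27Ac these values were 1.48 and 1.53 at 0 h, 1.47 and 1.52 at 3 h, 3.01 and 2.96 at 12 h, and 3.05 and 2.99 at 48 h. The 12 h condition alone turned away 6634 windows and the 3 h condition 1737, against 706 for H3K4Me1 at 0 h, 301 for H3K27Ac at 48 h and 59 for H3K27Ac at 0 h.

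H3K27Ac at 24 h, the acetylation library that took no part in the choice, was at least 3 in 1382 of the 1434 windows, or 96.4% (95.3 to 97.3%), against 5.69% of all mappable windows. The windows had to be at 3 or more at 12 h and 48 h, and of the windows at 3 or more at 48 h alone 82.2% were at 3 or more at 24 h. Its levels ran from 1.52 to 60.6 with quartiles of 5.65 and 13.2. In 1308 windows (91.2%) the level was higher at 24 h than at 12 h, against 21.6% of all mappable windows. This share was 92.6% in windows gained after 12 h, 77.5% in those gained by 3 h and 72.1% in all windows at 3 or more at 48 h. A rise between these times was thus not particular to the windows gained by 12 h. A rise of at least 1.5-fold from 12 h to 24 h, with 5 tags added to both scaled counts, was seen in 928 windows (64.7%, background 3.60%), and a rise of at least 2-fold in 574 (40.0%, background 0.972%). A fall of at least 1.5-fold between these times was seen in 10 windows (background 28.5%). The 12 h value in these ratios had to be at least 3, so the denominators were chosen.

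From 24 h to 48 h the windows divided. Of the 1434, 240 (16.7%, background 3.86%) were at least 1.5-fold higher at 24 h and 255 (17.8%, background 23.3%) were at least 1.5-fold higher at 48 h. The time of highest H3K27Ac was 12 h in 53 windows, 24 h in 655 and 48 h in 726, and it was not counted over all mappable windows. H3K27Ac was higher at 48 h than at 24 h in 52.2% of the windows, against 70.5% of all mappable windows. This division moved with the scaling: 47.8% of the windows were higher at 24 h than at 48 h when levels were taken over the library mean, 85.6% when taken over background windows, and 25.9% when scaled to an equal total in windows acetylated at all 5 times. No order of the 24 h and 48 h acetylation levels can therefore be read from these libraries.

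H3K4Me1 was then counted at each time after 0 h. At 3 h, 267 windows (18.6%, 16.6 to 20.7%) had an H3K4Me1 level of at least 2, against 10.3% of all mappable windows. At 12 h the number was 1335 (93.1%, 91.7 to 94.4%, background 10.4%), at 24 h 1412 (98.5%, background 11.7%) and at 48 h 1410 (98.3%, background 12.2%). The level of 2 was first reached at 3 h in 267 windows, at 12 h in 1068, at 24 h in 79 and at 48 h in 6. In the 79 windows that reached it at 24 h the median H3K27Ac level at 24 h was 4.61, compared with 8.88 in the 1335 windows that had H3K4Me1 by 12 h. Only 14 windows (0.976%, background 84.9%) never reached an H3K4Me1 level of 2, and their medians were 1.37 for H3K4Me1 at 48 h and 3.25 for H3K27Ac at 24 h.

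The gain in H3K4Me1 was largest between 3 h and 12 h. The median log2 ratio of H3K4Me1 to 0 h was 0.23 at 3 h, 2.13 at 12 h, 2.76 at 24 h and 2.84 at 48 h, whereas over all windows it was -0.11, -0.25, -0.27 and -0.26. A level at least 2-fold that of 0 h, a value the rule had capped, was found in 141 windows at 3 h (9.83%, background 0.770%), in 1269 at 12 h (88.5%, background 2.56%), in 1398 at 24 h (97.5%, background 4.20%) and in 1400 at 48 h (97.6%, background 5.48%). From 3 h to 12 h, 1373 windows (95.7%, background 6.60%) rose at least 1.5-fold. From 12 h to 24 h, 721 windows (50.3%, background 9.43%) did so, and from 24 h to 48 h 120 windows (8.37%, background 11.5%). H3K4Me1 was highest at 48 h in 812 windows, at 24 h in 521, at 12 h in 100 and at 3 h in 1. The time of the highest level was not counted over all mappable windows. H3K4Me1 was higher at 48 h than at 24 h in 58.2% of the 1434 windows, against 49.3% of all mappable windows. This share was 41.8% in windows gained by 3 h and 93.9% in those gained after 12 h. Across the 1434 windows the levels of H3K4Me1 and H3K27Ac had a Spearman correlation of 0.58 at 12 h, 0.60 at 24 h and 0.56 at 48 h. These windows share libraries, mappability and base composition, and the correlation is a description of them.

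Windows chosen in the same way but acetylated earlier or later had another H3K4Me1 time course. Under the same limits at 0 h, 794 windows had H3K27Ac of at least 3 at 3 h and at 48 h. Another 3675 stayed under 1.5 up to 12 h and were at least 3 at 48 h. An H3K4Me1 level of at least 2 at 3 h was found in 75.9% (72.8 to 78.9%) of the windows gained by 3 h, in the 18.6% of those gained by 12 h given above, and in 4.27% (3.64 to 4.98%) of those gained after 12 h. At 12 h the shares were 97.7% (96.4 to 98.7%), 93.1% and 21.5% (20.1 to 22.8%) in the same order. At 48 h they were 98.2%, 98.3% and 90.9%. Median H3K4Me1 at 12 h was 9.49 in the windows gained by 3 h, 5.53 in those gained by 12 h and 1.17 in those gained after 12 h. From 12 h to 24 h H3K4Me1 rose at least 1.5-fold in 8.82% of the windows gained by 3 h, in 50.3% of those gained by 12 h and in 74.6% of those gained after 12 h. Apart from the shares at 48 h, the counting intervals of these shares do not overlap between the 3 sets. With 1 library per time the differences have no test. The sets were chosen by the time of H3K27Ac. Across windows H3K4Me1 and H3K27Ac at 12 h had Spearman correlations of 0.78 (gained by 3 h), 0.58 (by 12 h) and 0.43 (after 12 h). A difference in H3K4Me1 timing between the sets can therefore follow from the choice, and how much does was not tested. When the H3K27Ac libraries of 0 h and 3 h were left out of the choice, the share of windows with H3K4Me1 at 12 h was 78.0% in place of 93.1%.

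Both active marks formed a narrow peak at these windows. Around the centre of the H3K27Ac tags of 48 h, the mean H3K27Ac level in 200 bp bins was 0.78 at 0 h, 1.28 at 3 h, 9.43 at 12 h, 20.6 at 24 h and 21.4 at 48 h. More than 5 kb away it was 1.84, 2.39, 5.05, 7.26 and 7.08. The centre thus lay below its surroundings at 0 h and 3 h and above them from 12 h on, of which the 0, 3, 12 and 48 h values follow from the rule. H3K4Me1 at the centre was 1.5, 2.25, 10.4, 13.8 and 14.1, and beyond 5 kb 1.77, 2.09, 4.26, 5.42 and 5.67. The peak was 1200 bp wide at mid height for H3K27Ac at 24 h, and 1400, 2000 and 2200 bp wide for H3K4Me1 at 12, 24 and 48 h. H3K27Me3 at the centre was 1.06 at 0 h, 1.06 at 3 h, 1.12 at 12 h, 0.761 at 24 h and 0.729 at 48 h, while beyond 5 kb it was 0.993, 0.968, 1.2, 1.16 and 1.18. A dip in H3K27Me3 at the centre was thus seen at 24 h and 48 h, slightly at 12 h, and not at 0 h or 3 h. Windows gained by 3 h had it too, with 0.694 at the centre against 1.08 beyond 5 kb at 24 h and 0.681 against 1.05 at 48 h. Windows gained after 12 h had 1.18 against 1.18 at 24 h and 1.05 against 1.28 at 48 h.

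**Figure D2:**
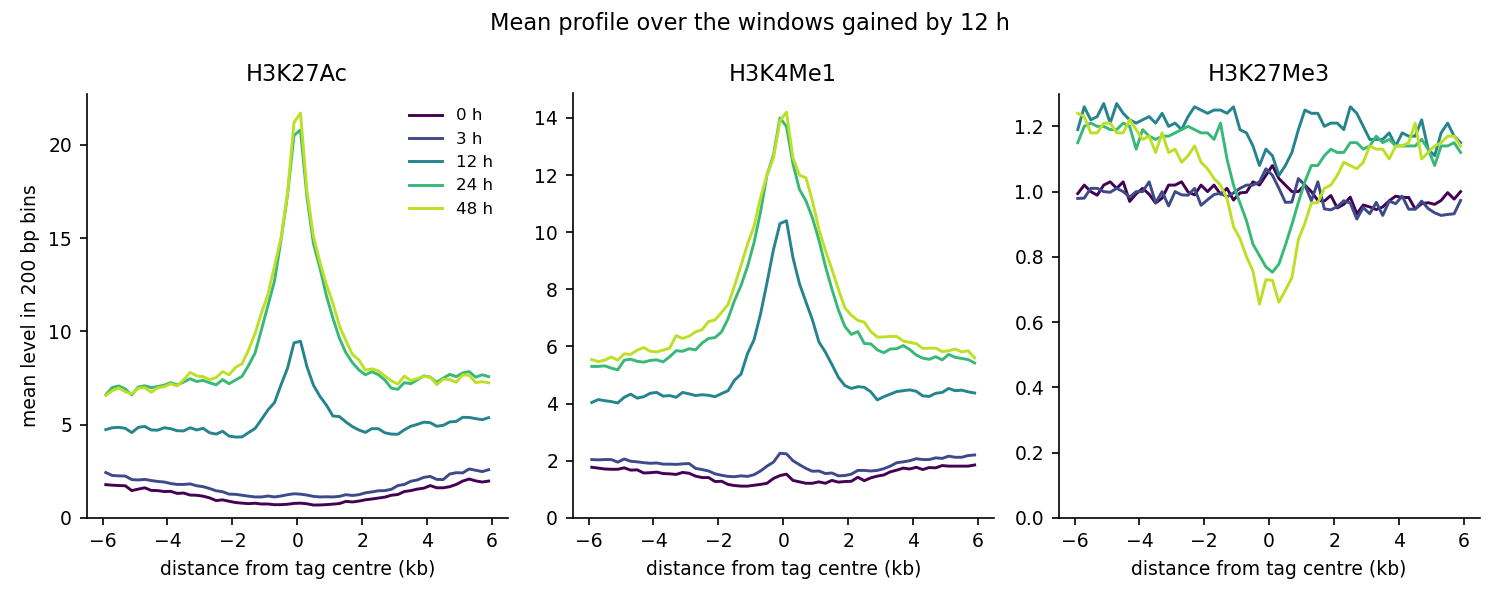
Mean level of H3K27Ac, H3K4Me1 and H3K27Me3 in 200 bp bins (vertical axes, tags over the library mean) against distance in kb from the centre of the H3K27Ac tags of 48 h, over the 1434 windows gained by 12 h, with 1 line and 1 library for each time. The H3K4Me1 peak rises from 2.25 at 3 h to 10.4 at 12 h and 14.1 at 48 h, and the H3K27Me3 line falls to 0.761 at 24 h and 0.729 at 48 h in the centre.

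The surroundings of the windows were partly marked before induction. Both adjacent windows had H3K27Ac under 1.5 at 0 h in 1125 of the 1434 (78.5%, background 88.7%), and an adjacent window stood at 3 or more in 165 (11.5%, background 8.08%). An adjacent window had H3K4Me1 of at least 2 at 0 h in 526 (36.7%, background 15.5%). A window with H3K27Ac of at least 3 at 0 h lay within 15 kb of 705 of them (49.2%, background 20.8%), at a median distance of 18 kb against 117.0 kb over all mappable windows. For windows gained by 3 h this median distance was 15 kb, and for those gained after 12 h 21.0 kb.

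The highest of the 1434 windows in H3K27Ac at 12 h lay in an intron of B230120H23Rik (chr2:72189001-72192000), 54.5 kb downstream of its start. Its H3K27Ac level was 0.547 at 0 h, 0.95 at 3 h, 26.5 at 12 h, 48.9 at 24 h and 54.7 at 48 h, on 10 tags at 0 h (4.8 to 18.4) and 520 at 12 h (476 to 567). H3K4Me1 in the same window was 1.23, 2.0, 21.8, 25.4 and 23.1. H3K4Me1 made most of its gain between 3 h and 12 h there, while H3K27Ac at 12 h was under its level at 24 h and 48 h.

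The next windows in this order differed in their levels after 12 h. In the window of the Tom1 intron (chr8:77586001-77589000), H3K27Ac was 0.657, 0.902, 22.1, 28.2 and 20.7 and H3K4Me1 0.763, 0.571, 15.6, 24.9 and 20.5. Tom1 encodes an endosomal sorting protein, and the window lies 30.0 kb upstream of Hmox1, the heme-degrading enzyme of macrophages. In the window 7.32 kb upstream of Ikbke (chr1:133182001-133185000), H3K27Ac was 0.547, 1.23, 21.8, 46.8 and 29.1, with the annotation placing its centre in an exon of Srgap2. Ikbke encodes a kinase of innate immune signalling. The window 8.52 kb upstream of Rbpj (chr5:53937001-53940000), which encodes the DNA-binding effector of Notch signalling, had H3K27Ac levels of 0.492, 0.997, 18.7, 45.2 and 40.2. The window 14.9 kb upstream of Appbp2 (chr11:85062001-85065000) went from 0.274 and 1.04 to 20.3, 43.1 and 43.0, and it was the only one of the 10 highest with an H3K27Me3 level over 2 at 0 h. Its H3K27Me3 levels were 2.16, 2.16, 2.29, 0.873 and 0.543. The levels after 12 h divided the 10 highest windows, since H3K27Ac at 48 h was 61.4 in the window 211 kb from the Eea1 start (chr10:95646001-95649000) and 12.1 in the Heatr7a intron (chr15:76260001-76263000), where it had been 18.3 at 12 h and 24.4 at 24 h.

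The windows with the largest ratio of H3K4Me1 at 48 h to 0 h differed in when they took up the mark. In an intron of Dscr3 (chr16:94722001-94725000) H3K4Me1 was 0.176, 0.618, 4.41, 12.6 and 20.4, a log2 ratio of 5.47. In an intron of Notch2 (chr3:97860001-97863000), the gene of a Notch receptor, it was 0.411, 1.33, 8.27, 22.7 and 25.6, and H3K27Ac there was 0.547, 0.76, 10.1, 40.0 and 62.4. In an intron of Itgb2 (chr10:77007001-77010000), which encodes the β chain of the leukocyte β2 integrins, H3K4Me1 was 0.235, 0.333, 3.5, 13.5 and 18. The third of these windows in rank, 103 kb from the start of Gm826 (chr2:160035001-160038000) and touching a window among the 10 highest, had H3K4Me1 levels of 0.293, 1.24, 18.6, 27 and 24.0. Counted as a difference in level, it thus made most of its gain by 12 h, whereas those of Dscr3, Notch2 and Itgb2 gained more after 12 h than before. Counted as a ratio, those 3 windows also rose more before 12 h than after. Their levels at 0 h rest on 3, 7 and 4 tags. The window second in rank, on chromosome 18, is not described here.

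Most of the windows stood alone. Of the 1242 runs, 1079 were single windows, and the other 163 held 355 windows. The longest run spanned 8 windows and 24 kb around the start of Ptpre and into its introns (chr7:142836001-142860000), which encodes the receptor-type tyrosine phosphatase epsilon. Over this run H3K27Ac was 0.287, 0.712, 8.26, 27.6 and 25.2, H3K4Me1 was 0.601, 0.648, 7.83, 16.0 and 13.8, and H3K27Me3 was 1.08, 0.907, 1.02, 1.18 and 0.868. The low levels at 0 h and the H3K27Ac levels at 12 h and 48 h follow from the rule. H3K4Me1 after 0 h and H3K27Me3 did not enter it, and H3K27Me3 stayed between 0.868 and 1.18 over the run. The next longest runs each had 4 windows, upstream of Ikbke, in introns of Fbxo42 (chr4:140733001-140745000), in introns of Heatr1 near Lgals8 (chr13:12513001-12525000) and in introns of Asap1 (chr15:63933001-63945000). In the Fbxo42 run H3K27Ac went from 0.616 and 0.879 to 7.78, 19.2 and 24.9. In the Heatr1 run acetylation came with little H3K4Me1 at first, since H3K27Ac was 4.69 at 12 h and H3K4Me1 1.15, rising to 4.13 at 24 h and 4.96 at 48 h.

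Some of the windows carried H3K27Me3 before induction, a mark that the rule did not use. An H3K27Me3 level of at least 2 at 0 h was found in 201 windows (14.0%, 12.3 to 15.9%, background 11.0%). At 3 h the number was 190 (13.2%, background 10.9%). At 12 h the number was 297 (20.7%, background 12.0%), at 24 h 228 (15.9%, background 12.6%) and at 48 h 145 (10.1%, 8.60 to 11.8%, background 13.3%). With levels over the library mean the count was highest at 12 h and lowest at 48 h. It was not recounted with levels over background windows. In the windows gained after 12 h, still poor in H3K27Ac at 12 h, 735 of 3675 were at 2 or more at 12 h, up from 583 at 0 h, and 834 (22.7%) at 48 h. At 48 h the level was at least 2-fold lower than at 0 h in 78 windows (5.44%, background 2.40%) and at least 2-fold higher in 8 (background 0.705%).

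In the 201 windows marked at 0 h the median H3K27Me3 level was 2.51 at 0 h, 2.48 at 3 h, 3.26 at 12 h, 2.54 at 24 h and 2.06 at 48 h. In all mappable windows marked at 0 h it was 2.51, 2.43, 2.69, 2.66 and 2.71. At 12 h, 195 of the 201 (97.0%) were still at 2 or more, compared with 83.4% of the 91661 mappable windows that were marked at 0 h. The 12 h share was 89.1% in marked windows gained by 3 h, 90.2% in those gained after 12 h and 90.9% in those at 3 or more in H3K27Ac at 48 h. In these 3 sets the median also rose from 0 h to 12 h, from 2.57 to 2.91, 2.45 to 2.86 and 2.51 to 3.0. In marked windows acetylated at all 5 times it rose from 2.43 to 2.91, so a rise by 12 h was not particular to the windows gained by 12 h. At 48 h, 104 of the 201 (51.7%, 44.6 to 58.8%) were still at 2 or more, compared with 82.9% of all mappable windows marked at 0 h. The H3K4Me1 medians of the 201 windows were 0.997, 1.66, 7.71, 10.8 and 11.1. Their H3K27Ac median at 24 h was 10.9, against 8.07 in the 1233 windows with an H3K27Me3 level under 2 at 0 h. All of these windows had to reach an H3K27Ac level of 3 at 12 h and 48 h to be chosen, so this comparison holds among acetylated windows alone. The level was lower at 48 h than at 0 h in 158 of the 201 (78.6%), against 41.8% of all marked windows, and at least 2-fold lower in 19 (9.45%, 5.79 to 14.4%), against 0.446%. A closer comparison is with the 2808 marked windows at 3 or more in H3K27Ac at 48 h. Of those, 57.0% were lower, 7.66% were at least 2-fold lower and 70.2% were still marked. The 2-fold share was thus near that of acetylated windows in general. Among windows gained by 3 h that were marked at 0 h, 110 in number, 36.4% were still marked at 48 h and 31.8% were at least 2-fold lower. Among the 583 gained after 12 h the shares were 88.7% and 1.03%. The share still marked moved with the scaling, to 62.2% over background windows against 90.0% of all marked windows, and was 51.2% when the early H3K27Ac libraries were left out of the choice. H3K27Me3 and H3K27Ac in the same window may come from different cells or alleles, which these libraries cannot tell apart.

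**Figure D3:**
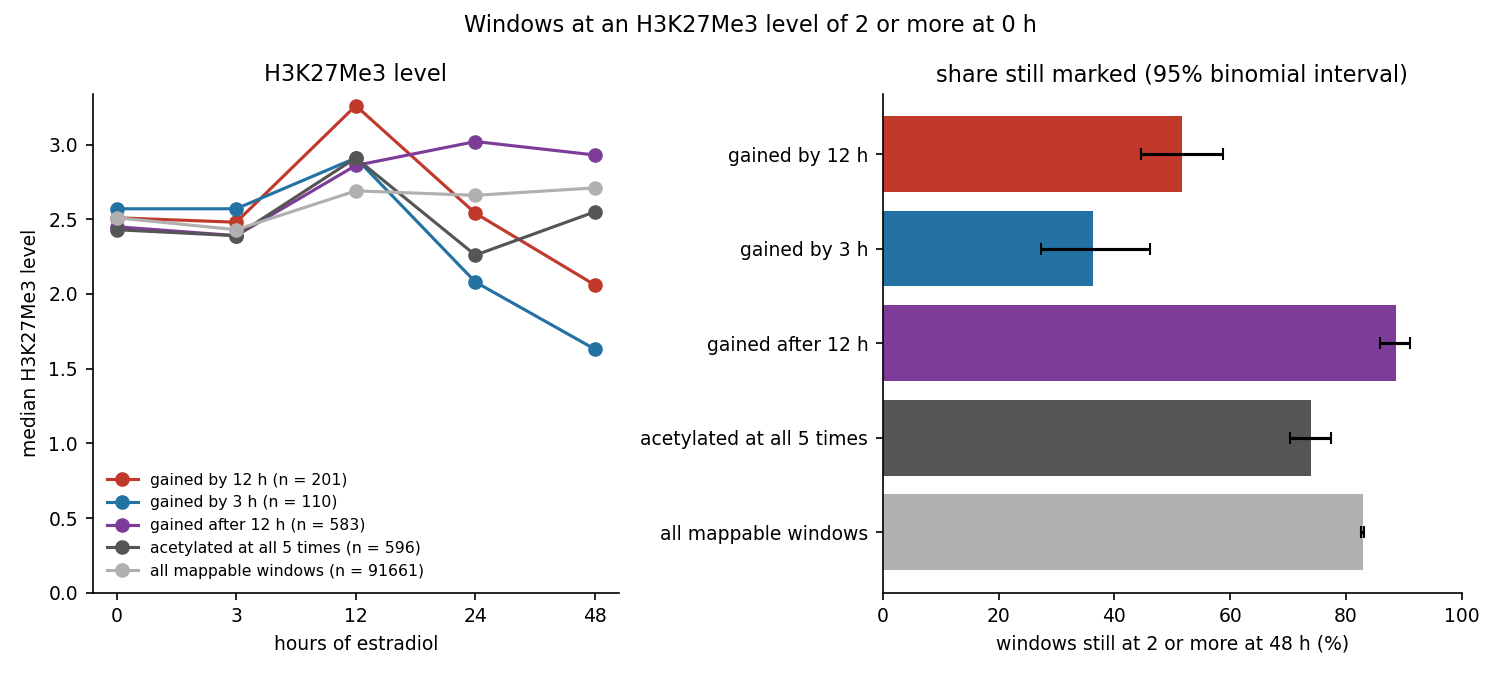
Windows with an H3K27Me3 level of at least 2 at 0 h. Left, median H3K27Me3 level against hours of estradiol, 1 library per time; right, percent of these windows still at 2 or more at 48 h, with exact 95% binomial intervals that cover counting error only. The windows gained by 12 h (red, n = 201) peak at 3.26 at 12 h and 51.7% of them are still marked at 48 h, between 36.4% of those gained by 3 h and 88.7% of those gained after 12 h.

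The 5 windows highest in H3K27Me3 at 0 h differed in how much of it was left at 48 h. In an intron of Itgam (chr7:135231001-135234000), which encodes the CD11b chain of the macrophage integrin Mac-1, H3K27Me3 was 4.36, 3.99, 6.08, 4.05 and 2.77, while H3K27Ac was 0.438, 0.95, 3.72, 10.4 and 12.4. The window upstream of Ythdf3 (chr3:16077001-16080000) had H3K27Me3 levels of 4.25, 5.1, 7.31, 5.28 and 5.05 beside H3K27Ac of 3.52 at 12 h and 4.21 at 48 h. Highest of all at 0 h was the window in an intron of Ccr9 (chr9:123630001-123633000), the gene of a chemokine receptor, with 5.09, 4.96, 5.73, 3.97 and 4.34. In the window upstream of Tmem71 (chr15:66399001-66402000) the levels were 4.28, 4.41, 5.42, 3.77 and 3.58. The window in an intron of Xrra1 (chr7:107034001-107037000) had 4.2, 3.81, 4.49, 3.33 and 2.17. In each of the 5 windows H3K27Me3 was higher at 12 h than at 0 h.

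The 1434 windows lay mostly inside genes and away from their starts. By the GENCODE annotation, 214 (14.9%, background 9.32%) were centred within 2500 bp of an annotated start. The centre fell in an intron in 850 windows (59.3%, background 38.0%), in an exon in 115 (8.02%, background 3.43%) and between genes in 469 (32.7%, background 58.6%). The nearest protein-coding start lay within 10 kb of 603 (42.1%, background 20.8%) and within 50 kb of 1183 (82.5%, background 50.1%), and 104 (7.25%, background 36.1%) were over 100 kb away. The median distance was 14.0 kb, with quartiles of 5.15 and 33.9 kb, against 16.8 kb for windows gained by 3 h, 18.1 kb for those gained after 12 h and 49.7 kb over all mappable windows. Without the H3K27Ac libraries of 0 h and 3 h in the choice, 37.7% of the chosen windows lay within 2500 bp of a start in place of 14.9%. The autosomes held 1.14 to 2.42 such windows per 1000 mappable ones, with chromosome 11 at the top, and the X chromosome 0.416.

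The starts of the nearest genes were often acetylated already in pre-B cells. The windows farther than 2500 bp from a protein-coding start had 889 genes as their nearest ones, and H3K27Ac in the 3 kb centred on the start of these genes was at least 3 at 0 h in 588 (66.1%, 62.9 to 69.3%), against 44.4% of all 22350 protein-coding genes. The share was much alike for genes nearest to windows gained by 3 h (65.3%), gained after 12 h (63.7%) and at 3 or more in H3K27Ac at 48 h (67.4%). The median start level of the 889 genes was 9.96 at 0 h, 11.3 at 3 h, 12.2 at 12 h, 13.7 at 24 h and 10.8 at 48 h. A start level at least 2-fold higher at 12 h than at 0 h was found in 142 genes (16.0%, 13.6 to 18.5%, background 4.21%), compared with 16.8% of genes nearest to windows gained by 3 h and 7.86% of those nearest to windows gained after 12 h. At 48 h, 177 starts (19.9%, 17.3 to 22.7%, background 5.24%) were at least 2-fold higher and 55 (6.19%, background 9.11%) at least 2-fold lower. For genes nearest to windows gained by 3 h these shares were 18.5% and 8.77%, and for those gained after 12 h 13.3% and 7.23%. Most of the nearest starts thus passed neither limit in either direction. The nearest gene need not be the gene that a window acts on.

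Genes of macrophage function were looked up in lists that were drawn up with earlier results of these data known. Of all protein-coding genes, 1994 (8.92%) had one of the windows within 50 kb of a start. Of the 20 pattern recognition receptor genes 6 had one, and so did 9 of 19 phagocytosis and Fc receptor genes, 8 of 19 chemokine and chemokine receptor genes, 8 of 26 cytokine and cytokine receptor genes, 6 of 32 myeloid transcription factor genes, 5 of 28 lysosome and protease genes, 5 of 10 genes of the NADPH oxidase and oxidative burst and 5 of 18 lipid handling genes. Of 13 neutrophil granule genes 2 had one. Of 26 B lineage genes, 16 T lineage genes, 12 erythroid genes and 12 genes used by every cell, 0 had one. At the share of 8.92%, lists of 12 to 26 genes would hold few such genes. The rule also left out windows already acetylated at 0 h, so such windows near B lineage genes could not be counted. Neighbouring genes can share a window, as Ccl2 with Ccl7, Il1a with Il1b and Clec4d with Clec4e do, so the counts are of genes and not of independent windows.

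**Figure D4:**
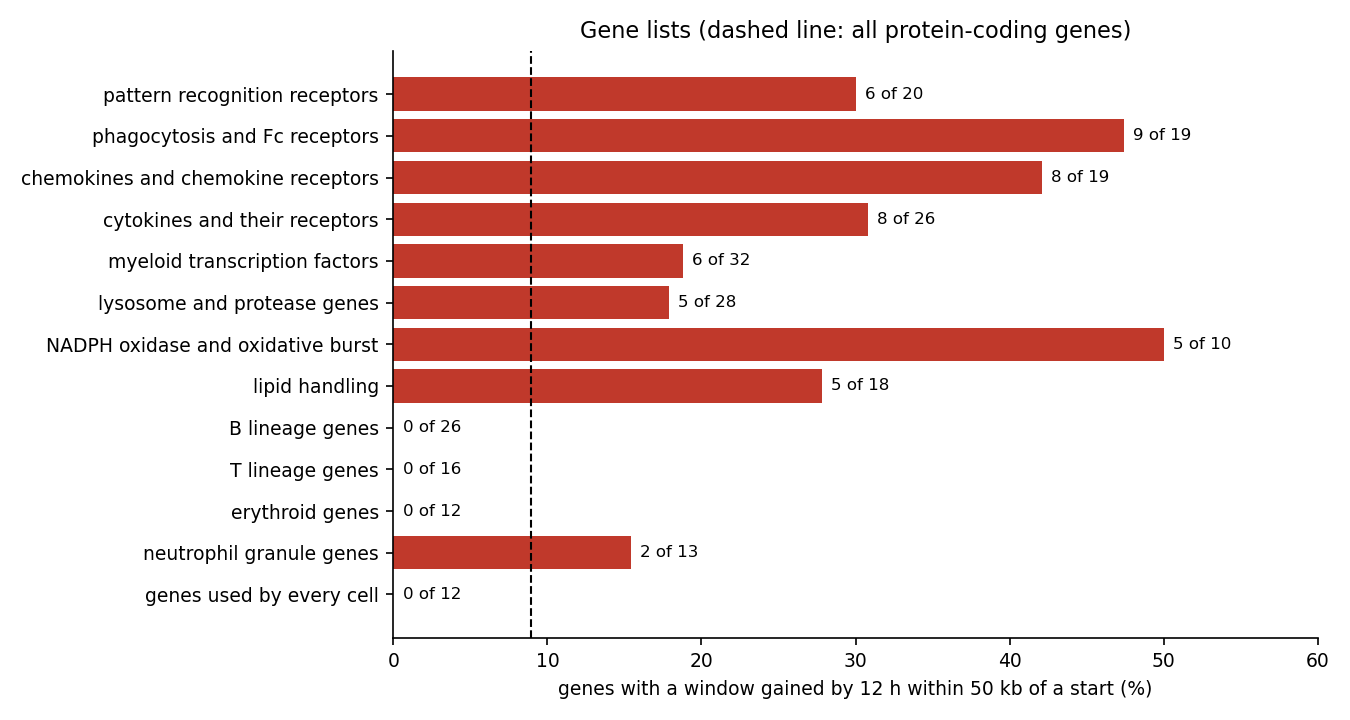
Percent of the genes of each list (horizontal axis) with at least 1 window gained by 12 h within 50 kb of a start, with the number of genes at each bar; the dashed line marks the 8.92% found over all protein-coding genes. The 8 macrophage lists lie between 17.9% and 50.0%, the neutrophil granule list at 15.4%, and the B lineage, T lineage, erythroid and every-cell lists at 0.

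Among the pattern recognition receptors, the window in an intron of Clec4d (chr6:123216001-123219000) had the highest H3K27Ac at 12 h. This gene and its neighbour Clec4e encode C-type lectins of myeloid cells, and H3K27Ac in the window was 0.383, 0.902, 8.15, 21.5 and 39.6. H3K4Me1 there went from 0.821 and 1.52 to 5.48, 6.27 and 5.8. Upstream of Msr1 (chr8:40734001-40737000), the class A scavenger receptor, H3K27Ac was 0.109, 0.38, 7.08, 20.4 and 30.6. At Tlr2 (chr3:83640001-83643000), a receptor for bacterial lipoproteins, it was 0.875, 0.57, 4.89, 15.4 and 18.8. At the starts of the list, H3K27Ac was at least 2-fold higher at 48 h than at 0 h in 13 of 20 genes and at least 2-fold lower in 1. Over all protein-coding starts these shares were 5.24% and 9.11%, which also stand behind the counts of starts in the lists that follow.

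For each listed gene the window highest in H3K27Ac at 12 h was taken, and among these windows the highest at 24 h belonged to the phagocytosis and Fc receptor list. It lay between genes, nearest to Fcrlb and 48.3 kb from the start of Fcgr2b, the inhibitory receptor for IgG (chr1:172842001-172845000), and had H3K27Ac levels of 0.438, 0.997, 11.7, 35.6 and 32.9. The Fcgr2b start itself went from 768 tags at 0 h to 590 at 48 h. The window 22.2 kb upstream of Trem2 (chr17:48462001-48465000), a lipid-sensing receptor of macrophages, had 0.875, 0.237, 8.82, 28.9 and 37.5. At Sirpa (chr2:129426001-129429000), the receptor of the CD47 signal, it was 0.274, 0.57, 6.73, 19.3 and 13.1. The window 0.551 kb upstream of Fcgr4 (chr1:172947001-172950000), an activating receptor for IgG, lost H3K27Me3, with levels of 2.75, 2.89, 3.04, 2.42 and 0.868, while H3K27Ac was 0.821, 0.902, 6.17, 22.8 and 17.9. In this list 10 of 19 starts were at least 2-fold higher at 48 h and 1 at least 2-fold lower.

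Some chemokine genes shared a window. The window 19.6 kb upstream of Ccl2 (chr11:81828001-81831000), the chief chemokine for monocytes, also lay within 50 kb of Ccl7, and its H3K27Ac was 0.164, 1.19, 5.35, 19.3 and 16.1. The window upstream of Cxcl16 (chr11:70281001-70284000), a membrane-bound chemokine and scavenger receptor, kept part of its H3K27Me3, at 3.46, 3.35, 2.47, 1.87 and 2.06, beside H3K27Ac of 0.109, 0.712, 4.89, 13.6 and 8.83. The window 48.1 kb from Cx3cr1 (chr9:120024001-120027000), the fractalkine receptor, had 1.31, 1.28, 3.82, 8.69 and 6.95. In the list 9 of 19 starts were at least 2-fold higher at 48 h and 1 at least 2-fold lower.

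Among the cytokines, 1 window 9.79 kb upstream of Il1a and 47.6 kb from Il1b (chr2:129144001-129147000) combined all 3 marks. Both genes encode interleukin 1, a main inflammatory cytokine of macrophages. H3K27Me3 was 3.77, 4.18, 5.46, 3.18 and 2.39, H3K4Me1 0.763, 0.903, 11.1, 14.4 and 14.3, and H3K27Ac 0.219, 0.285, 6.42, 13.9 and 11.4. The mark of Polycomb was thus highest there at 12 h, with both active marks already present. In the intron window of Il1rn (chr2:24195001-24198000), the interleukin 1 receptor antagonist, H3K27Ac was 1.15, 0.76, 5.4, 12.4 and 20.9. Near Csf2rb2 (chr15:78090001-78093000), a β chain of the IL-3 receptor, the window was that of Ncf4, at 0.93, 1.28, 5.45, 10.8 and 10.8. In the list 10 of 26 starts were at least 2-fold higher at 48 h and 2 at least 2-fold lower.

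Of the NADPH oxidase list, Hmox1 was near the Tom1 window given above, and 4 of the others encode subunits of the oxidase itself. In the intron of Cybb (chrX:9033001-9036000), its catalytic subunit, H3K27Ac was 0.383, 1.14, 6.57, 14.7 and 12.6. At Ncf4 it was that of the shared window. In a window 11.0 kb upstream of Ncf1 (chr5:134715001-134718000), a cytosolic subunit, it was 1.2, 1.33, 4.54, 10.8 and 16.7. That window lay in an intron, and its nearest gene was Gtf2i. Of the 10 starts of this list, 1 was at least 2-fold higher at 48 h and 1 at least 2-fold lower, near the shares of 5.24% and 9.11% over all starts. At the outermost annotated start of Cybb 1 tag was counted at 0 h and 11 at 48 h, whereas at that of Ncf1 455 and 578 tags were counted. Whether these are the starts in use was not tested.

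The windows of lipid and lysosome genes differed in their levels. In the intron of Alox5ap (chr5:150084001-150087000), which hands arachidonic acid to 5-lipoxygenase, H3K27Ac was 0.657, 0.95, 9.22, 18.1 and 19.5. At Plin2 (chr4:86310001-86313000), a coat protein of lipid droplets, it was 0.985, 1.42, 5.2, 15.8 and 22.3. At Ltb4r1 (chr14:56385001-56388000), a receptor for leukotriene B4, H3K27Ac was 0.109, 0.855, 5.1, 12.5 and 15.8. At Cd36 (chr5:17364001-17367000), a fatty acid and oxidized lipid receptor, H3K27Ac was 0.383, 0.807, 3.67, 5.56 and 13.3 and H3K4Me1 0.704, 0.618, 2.69, 5.8 and 13.4. The window 28.1 kb upstream of Ctsc (chr7:95397001-95400000), the protease that activates granule serine proteases, was among the strongest at 12 h, with 0.492, 1.47, 16.3, 25 and 21.5. Upstream of Ctsd (chr7:149586001-149589000), a main lysosomal protease, H3K27Ac was 0.547, 0.665, 8.92, 20.6 and 26.5 and H3K27Me3 3.06, 2.3, 3.7, 2.3 and 1.47. The starts were at least 2-fold higher at 48 h in 6 of 18 lipid genes and 9 of 28 lysosome genes, and at least 2-fold lower in 3 and 0.

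Of the myeloid transcription factor genes 18.8% were near a window, against the 8.92% of all protein-coding genes. The window 43.9 kb upstream of Cebpb (chr2:167469001-167472000), a factor of the same family as C/EBPα, lay at Tmem189 and had H3K27Ac of 1.26, 1.33, 4.69, 11.8 and 13.7. In an intron of Fosl2 (chr5:32442001-32445000), which encodes a Fos partner of AP-1, it was 0.219, 1.42, 4.54, 8.83 and 16.8. In an intron of Tfec (chr6:16842001-16845000), a macrophage factor of the Mitf family, it was 0.219, 0.76, 4.43, 11.8 and 13.1, and the start of this gene went from 10 to 605 tags between 0 h and 48 h. Upstream of Zeb2 (chr2:44994001-44997000), a zinc finger repressor, it was 0.274, 1.42, 3.11, 6.89 and 13.2. Among these starts 4 were at least 2-fold higher at 48 h, 4 at least 2-fold lower and 24 passed neither limit.

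Genes of other cell types were looked at in the same way. The neutrophil granule gene Camp had a window 4.47 kb from its start (chr9:109746001-109749000) with H3K27Ac of 0.657, 0.475, 7.9, 11.2 and 8.12, and its start went from 12 tags at 0 h to 1081 at 48 h. The window at Ltf (chr9:110934001-110937000) had 0.547, 1.14, 3.26, 7.6 and 3.6, and the Ltf start held 4 and 3 tags. Of the neutrophil granule list, 6 of 13 starts were at least 2-fold higher at 48 h and 0 at least 2-fold lower. Of the 26 B lineage genes 0 starts were at least 2-fold higher and 24 at least 2-fold lower, and of 16 T lineage genes 0 were at least 2-fold higher and 1 at least 2-fold lower.

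The sequences of the windows were searched on both strands for 6 short motifs and 1 palindrome. The C/EBP core TTGCNNAA was present in 74.5% of the 1434 windows and in 76.2% of all mappable windows. It was present in 84.0% of the windows gained by 3 h and in 73.3% of those gained after 12 h. The palindrome TTGCGCAA, a form of that core, was found in 3 of the 1434 (0.209%), in 1.51% of the windows gained by 3 h and in 0.251% of all. The AP-1 site TGACTCA was present in 52.1% of the windows against 38.0% of all mappable windows, 47.9% of those gained by 3 h and 58.6% of those gained after 12 h. The PU.1 site GAGGAAGT was present in 26.6%, against 16.7%, 18.4% and 20.4% in the same order. In windows acetylated at all 5 times and over 2500 bp from starts the shares were 72.0% for C/EBP, 46.1% for AP-1 and 25.3% for PU.1, and in the chosen windows over 2500 bp from starts 74.8%, 52.6% and 26.3%. For the RUNX site TGTGGTT the share was 55.3% against 51.3% of all windows, for the EBF1 site (TCCC and GGGA with 2 free bases between) 5.86% against 4.97%, and for the GATA site AGATAAG 31.5% against 36.7%.

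Base composition differed as well, with a median GC content of 45.2% in the windows gained by 12 h and 41.3% over all mappable windows. Among windows with 42.4 to 48.0% GC, the middle range of the chosen windows, the shares with a match were 75.1% against 72.6% for C/EBP, 52.2% against 41.6% for AP-1 and 28.5% against 18.9% for PU.1, over 716 chosen and 255309 mappable windows. Within 200 bp of the tag centre, a C/EBP match was found in 281 windows (19.6%), an AP-1 match in 197 (13.7%) and a PU.1 match in 87 (6.07%). In the central 400 bp of all mappable windows, taken at the window centre, the shares were 18.1%, 6.39% and 2.47%. In the windows gained by 3 h they were 25.2%, 10.3% and 4.53%, and in those gained after 12 h 19%, 17.7% and 4.03%. In windows acetylated at all 5 times and over 2500 bp from starts they were 15.6%, 8.75% and 5.93%. In all, 486 windows (33.9%) had at least 1 of the 3 motifs in the central 400 bp, compared with 25.3% of all windows. A match is a description of the letters and not a bound site.

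**Figure D5:**
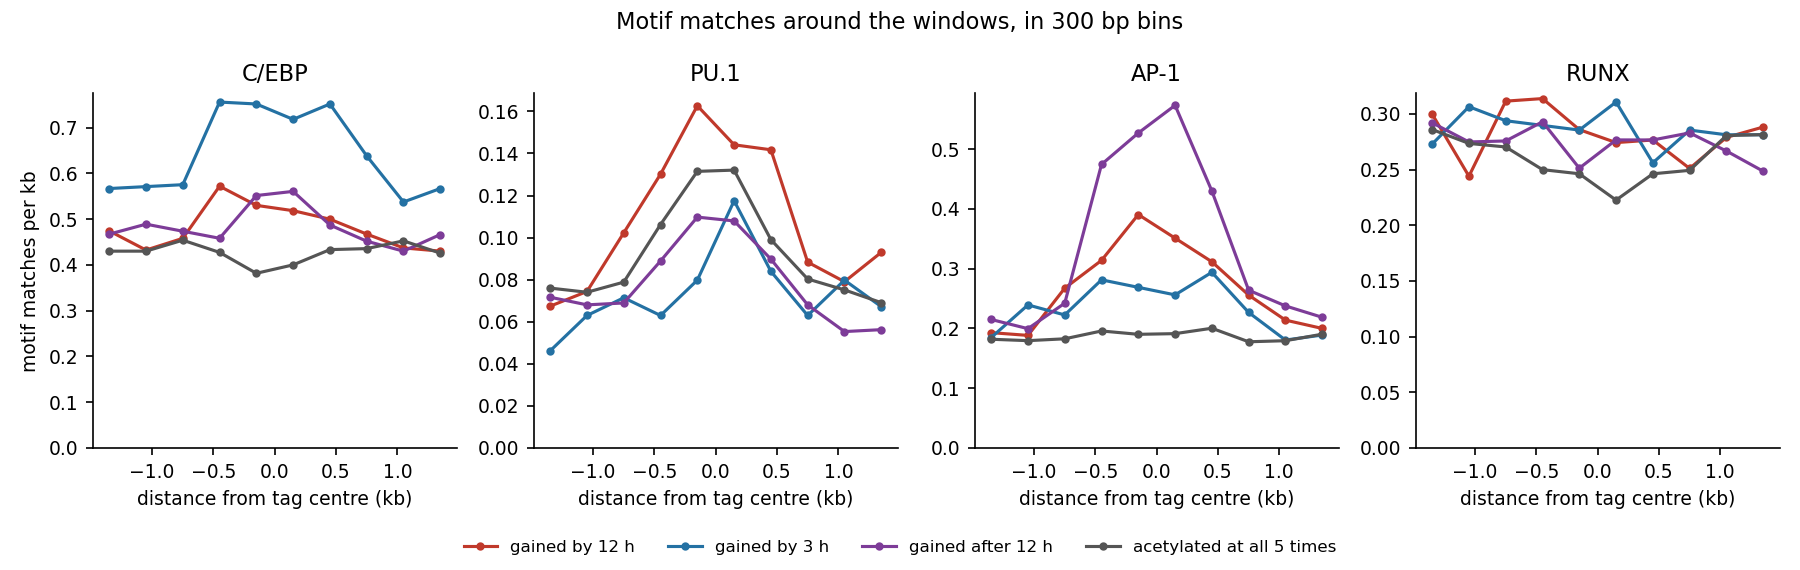
Matches per kb to the C/EBP, PU.1, AP-1 and RUNX motifs, both strands, in 300 bp bins (vertical axes) against distance in kb from the centre of the H3K27Ac tags of 48 h, for 4 sets of windows. In the windows gained by 12 h (red) AP-1 matches reach 0.391 per kb and PU.1 matches 0.163 per kb in the bin left of the centre, with 0.573 and 0.11 as the highest bins of windows gained after 12 h and 0.294 and 0.118 as those of windows gained by 3 h, and PU.1 matches reach 0.132 per kb in windows acetylated at all 5 times.

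Windows with and without a central match were set side by side as a description, with no test. The median H3K27Ac level at 24 h was 9.45 in the 281 windows with a central C/EBP match and 8.26 in the 1153 without, 9.55 against 8.36 for AP-1, and 7.79 against 8.55 for PU.1. H3K4Me1 at 12 h was 5.78 against 5.48 for C/EBP, 5.89 against 5.48 for AP-1 and 5.68 against 5.48 for PU.1. The quartiles of H3K27Ac at 24 h were 6.27 and 13.6 with a C/EBP match and 5.46 and 13 without.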

How the data were processed

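ChIP-seq for H3K4Me1, H3K27Ac and H3K27Me3 was done in C10 cells at 0, 3, 12, 24 and 48 h, with 1 library for each mark and time as the labels group them. According to the methods and labels, the authors aligned Illumina reads to mm9 with Eland or Bowtie without mismatches and removed non-unique and identical tags. Which aligner served which library is not given in the sources used here. The deposited files hold tag intervals of 36 bp without strand, and no count or normalized value. Each distinct position was counted once, by its midpoint, because the libraries kept identical tags to different extents. In 3 files 2 lines without a position were dropped. Windows of 3 kb were counted and scaled to the library mean, and ratios took scaled tags plus 5. Start levels and start tags were counted around the outermost annotated start of each gene. Distances were taken to the nearest start of any transcript. A start level therefore need not be that of the start in use.

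The reference was NCBIM37 (mm9) with the GENCODE vM1 annotation. RefSeq tables served only for older gene symbols. The members and gene lists were chosen with earlier results of these data known. Named were the 10 windows highest in H3K27Ac at 12 h, with 1 for each run, the 5 with the largest H3K4Me1 ratio of 48 h to 0 h, the 5 highest in H3K27Me3 at 0 h, the 5 longest runs, and at most 4 genes per list, from those whose window was highest in H3K27Ac at 12 h. No window of chromosome 18 was described, and Cebpd and Gfi1 were not among the protein-coding genes used here. The scaling, the choice of windows and the motif search were tested on simulated data. Reading the tags and counting them in windows were not tested in this way. Python 3.11.15, numpy 2.4.6, scipy 1.17.1, pandas 2.3.3 and matplotlib 3.10.9 were used.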

Additional observations from a re-analysis of the deposited data

How the results depend on the processing

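No paired analysis was possible because there was 1 library for each mark and time. Of 98 values recomputed under 9 alternatives to the processing, 81 stayed within the limits set for them and 17 moved further. The limits were the counting interval of the median window for a level, the binomial interval for a share and 1.5-fold for a number of windows. The number of windows was 1434, 739 with H3K27Ac of at least 4 at 12 and 48 h, and 732 with H3K27Ac under 1 at 0 and 3 h. With levels over background windows, median H3K27Ac at 24 h was 15.3 in place of 8.5, and median H3K4Me1 was 9.54 at 12 h, 15.2 at 24 h and 15.5 at 48 h. With libraries scaled to an equal total in windows at 3 or more in the mark at all 5 times, H3K27Ac at 24 h was 7.29 and H3K4Me1 at 12 h 4.1. With the threshold of 4 they were 11.8 and 6.75, and H3K4Me1 at 24 h was 10.2. The share with H3K4Me1 of at least 2 at 12 h, 93.1%, was 98.3% over background windows, 85.8% with the scaling by windows marked at all 5 times, 98.4% with the threshold of 4 and 95.4% with the threshold of 1. The share with both neighbours poor in H3K27Ac at 0 h, 78.5%, was 84.7% with the threshold of 1 and 76.2% with 1 window per run. The cause was not tested.

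Of the 1434 windows, 86.4% were also chosen over background windows (73.8% of that choice), 92.1% with the scaling by windows marked at all 5 times (72.9%) and 92.1% after thinning to equal depth (90.4%). After the data were seen, the H3K27Ac libraries of 0 h and 3 h were left out of the choice. This gave 5057 windows, median H3K4Me1 of 1.85, 4.31, 6.0 and 6.18 at 3, 12, 24 and 48 h, H3K4Me1 at 12 h in 78.0%, and 37.7% near a start. Also added then, the share of H3K27Me3-marked windows still marked at 48 h was 62.2% over background windows in place of 51.7%. Depth limits single windows: at a level of 1.5 an H3K27Ac window holds 28 tags at 0 h and 32 at 3 h, and the conditions at 0 h and 3 h turned on 1 tag for the windows nearest to them.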
